A study of Mus musculus with 9 samples.

Results

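The genes described here are 35 members of the integrated stress response and its neighbours: the transcription factor gene Atf4, the genes reported as its targets, and the sensors that start the response or the parallel unfolded protein response. They were taken by gene name from the deposited count table, 35 of 55487 genes. The rule uses names and no measured value, but the names were proposed with earlier results of these data known. All 35 were found in 36 rows, because Ddit3 has a second gene model, which held 0 counts in every library and was not used. All 35 also passed the filter on low counts, which left 16353 genes for testing.

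RNA was sequenced from a mouse line named PT-22, labelled as proximal tubule of the kidney, with the genotype Pax2-/-, Pax8fl/fl, Rosa-CreERT2 that carries Pax8-pTRIPZ, in which Pax8 sits in a vector that doxycycline switches on. Every library shares these alleles and the vector, so the untreated cells too are labelled as lacking Pax2 and carry the floxed Pax8 and the tamoxifen-activated Cre, which is driven from the broadly active Rosa locus. Day 0 held 3 libraries of untreated cells, day 6 held 3 libraries of cells given 1 uM 4-hydroxytamoxifen to delete Pax8, and day 12 held 3 libraries of cells that had then received doxycycline at 1 ug/ml, every 2 days for 6 days. Serum was 3% for every library. The series asked how loss of PAX8 and its later return change gene expression. The labels differ on the length of the 4-hydroxytamoxifen treatment, 2 days in one place and 6 days of depletion in another, and do not say whether the line is a single clone. No vehicle-treated cells, no untreated cells after day 0 and no doxycycline-free cells at day 12 were analysed here, so effects of 4-hydroxytamoxifen, of doxycycline, of PAX8 and of culture time cannot be told apart. Nothing in the labels states that the 3 replicates of a day came from separate cultures, and p-values therefore measure the spread between libraries, which may be technical.

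Library totals lay between 56398623 and 86767334 counts. Levels are given as CPM, that is, counts scaled to a common library size, and a single count equalled 0.0119 to 0.0172 CPM. Pax8 itself was not lower after 4-hydroxytamoxifen, with 291 ± 1.7 CPM before it (mean ± SD, n = 3 here and below), 405 ± 5.9 at day 6 and 496 ± 7.8 at day 12, and Pax2 gave 31.9 ± 2.4 CPM at day 0. Counts summed over a gene do not separate deleted exons or the vector copy from the rest, so groups are named by day of collection. Of 17 proximal tubule markers, 9 passed the filter, with Lrp2, Cdh6, Aqp1 and Dab2 among them, whereas Slc34a1, Slc5a12 and Slc22a6 had 0 counts in every library, and Hnf4a had 4 counts in all. Mitochondrial genes took 6.66 to 7.18% of counts at day 0 and day 6, and 2.43, 3.96 and 2.1% in replicates A, B and C of day 12. Day 12 replicate B stood farthest from the replicates of its group, with a chi-square per degree of freedom of 35.2 and 39.6 against 5.04 to 24.1 for all other pairs within a day. Without it, 21 of the 35 genes rose and 5 fell from day 6 to day 12, and 11 rose and 21 fell against day 0. In that fit, 3368 of all 16730 genes tested rose and 3395 fell from day 6 to day 12, and 5463 rose and 5000 fell against day 0.

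In the integrated stress response, kinases that sense unfolded protein, amino acid shortage or haem shortage phosphorylate the initiation factor eIF2, which slows most protein synthesis while the messenger RNA of Atf4 is translated better through its upstream reading frames. ATF4 then pairs with other basic leucine zipper factors, C/EBP proteins among them, and switches on genes for making, importing and activating amino acids, together with factors that end the response or turn it towards cell death. Proximal tubule cells carry a heavy load of transport and protein uptake, and this response is known there from ischaemic and toxic injury. RNA levels measure neither eIF2 phosphorylation nor ATF4 protein nor the splicing of Xbp1, none of which was measured here.

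ATF4 with a C/EBP partner is known to recognise a composite element whose core can be written TGATGNAA. This core was searched on both strands, where the other strand reads TTNCATCA, in RefSeq promoter windows of build GRCm38.p6 that run from 250 bases before to 50 bases after each start site. Windows were present for 32 of the 35 genes, and 10 of these 32 (31.2%) held the core, against 1219 of 27025 genes with a window (4.51%) and 3.97% of all 32851 windows of this length. Many of the 35 were listed as reported ATF4 targets, so this higher share can follow from how the list was made, and it was not tested. Only the N and the strand could differ between matched cores, because the search fixed the other bases. The 10 matches are printed below, 5′ to 3′ along the gene, with the 8 bases of the core in capitals and 30 bases in each line.
Atf3, chr1:191183424-191183453, minus strand: cttctcgcacTTGCATCAccaagtccgcgg
Chac1, chr2:119351039-119351068, plus strand: ttccctgccgTTGCATCActcctgccaggt
Trib3, chr2:152344027-152344056, minus strand: tagctcaggtTTACATCAgccgggcgggga
Asns, chr6:7693213-7693242, minus strand: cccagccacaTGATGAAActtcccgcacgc
Nupr1, chr7:126625561-126625590, minus strand: aagggccagaTTGCATCAgacagggcttgg
Herpud1, chr8:94386307-94386336, plus strand: ccacggcgggTTGCATCAgcccgcaccccc
Pycr1, chr11:120643832-120643861, minus strand: gccctgtgtaTGATGCAAtgcacaaggctc
Jdp2, chr12:85599373-85599402, plus strand: tagccggggcTGATGCAAcccgtcccgccg
Vldlr, chr19:27216810-27216839, plus strand: gcagcaatagTTGCATCAgcgctcctagcc
Got1, chr19:43524688-43524717, minus strand: attgcattggTTGCATCAtacaagcctccg

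The cores read TTGCATCA or its reverse complement TGATGCAA in every line but those of Trib3 and Asns. Counted from the RefSeq start site, the first base of the core lay at -110 in both Atf3 and Nupr1, at -112 in Herpud1, -103 in Pycr1, -102 in Got1, -193 in Chac1, -200 in Vldlr, -33 in Jdp2 and -23 in Asns, and only in Trib3 after the start, at 15. In the GENCODE M21 annotation the Asns, Nupr1 and Vldlr windows fell inside an annotated exon of the same gene, the Trib3 window overlapped the Trib3 exon, and the others touched no exon. By role, 4 of 10 transcription factors and modulators, 4 of 8 enzymes of other amino acids and 2 of 4 remaining effectors held the core, and 0 of 4 sensors and 0 of 6 serine and one-carbon enzymes did. A match describes these letters in this window and is neither a binding site nor a cause.

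Between day 0 and day 6, 22 of the 35 genes fell and 7 rose (edgeR's quasi-likelihood test, adjusted p under 0.05), with a median log2 fold change of -0.52 against 0.02 over all genes tested. Calls were common in this comparison, with 64.9% of all genes called, 31.4% fallen and 33.5% risen, beside 82.9% of the 35 called. Between day 6 and day 12, 22 rose and 5 fell, with a median of 0.20, where 45.3% of all genes were called, 22.6% risen and 22.7% fallen. Day 12 against day 0 left 21 of the 35 lower and 11 higher, with a median of -0.41, where 66.4% of all genes were called, 34.7% risen and 31.7% fallen. RNAs retained in the nucleus moved at day 12 as well: from day 6, 2 of 3 tested fell and none rose, Malat1 from 1920 ± 470 to 664 ± 120 CPM (adjusted p = 2.42e-06) and Kcnq1ot1 by 1.66 ± 0.21 on the log2 scale (adjusted p = 1.75e-05). Neat1 differed by -0.07 ± 0.13 (adjusted p = 0.72), and the part of this shift in the results was not tested. Any pair of these comparisons shares the 3 libraries of 1 day, so each gene's values are given side by side. In bulk RNA, fewer cells of a type and less RNA per cell cannot be told apart.

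Scaling changed this balance at day 12. The deposited TPM correct for transcript length and were fitted without TMM factors. Those factors were 0.965 to 0.9754 in the libraries of day 0 and day 6, and 1.062 to 1.07 at day 12. On log2(TPM + 1) the median of all genes was 0.16 instead of 0.01 for day 12 against day 6 (0.21 on log2(TPM + 0.1)). For day 12 against day 0 it was 0.19 instead of 0.03 (0.25 on log2(TPM + 0.1)). On TPM, 90.1% of the genes called between day 6 and day 12 were higher at day 12, against 50% with TMM scaling and 60.5% with upper-quartile factors, and 81.3% against 52.3% were higher than at day 0. The 35 genes then split 30 risen and 2 fallen between day 6 and day 12, and 15 risen and 18 fallen against day 0. For day 6 against day 0 the 22 falls stood on both scales. Mitochondrial genes, whose share was lowest at day 12, were left out of the TMM-scaled counts, and none of the 105 calls of the 35 genes changed. The TPM fits kept these genes, so their part in the TPM shift was not tested, nor was that of the TMM factors. Values of single genes on log2(TPM + 1) given below contain this shift of all genes.

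**Figure D1:**
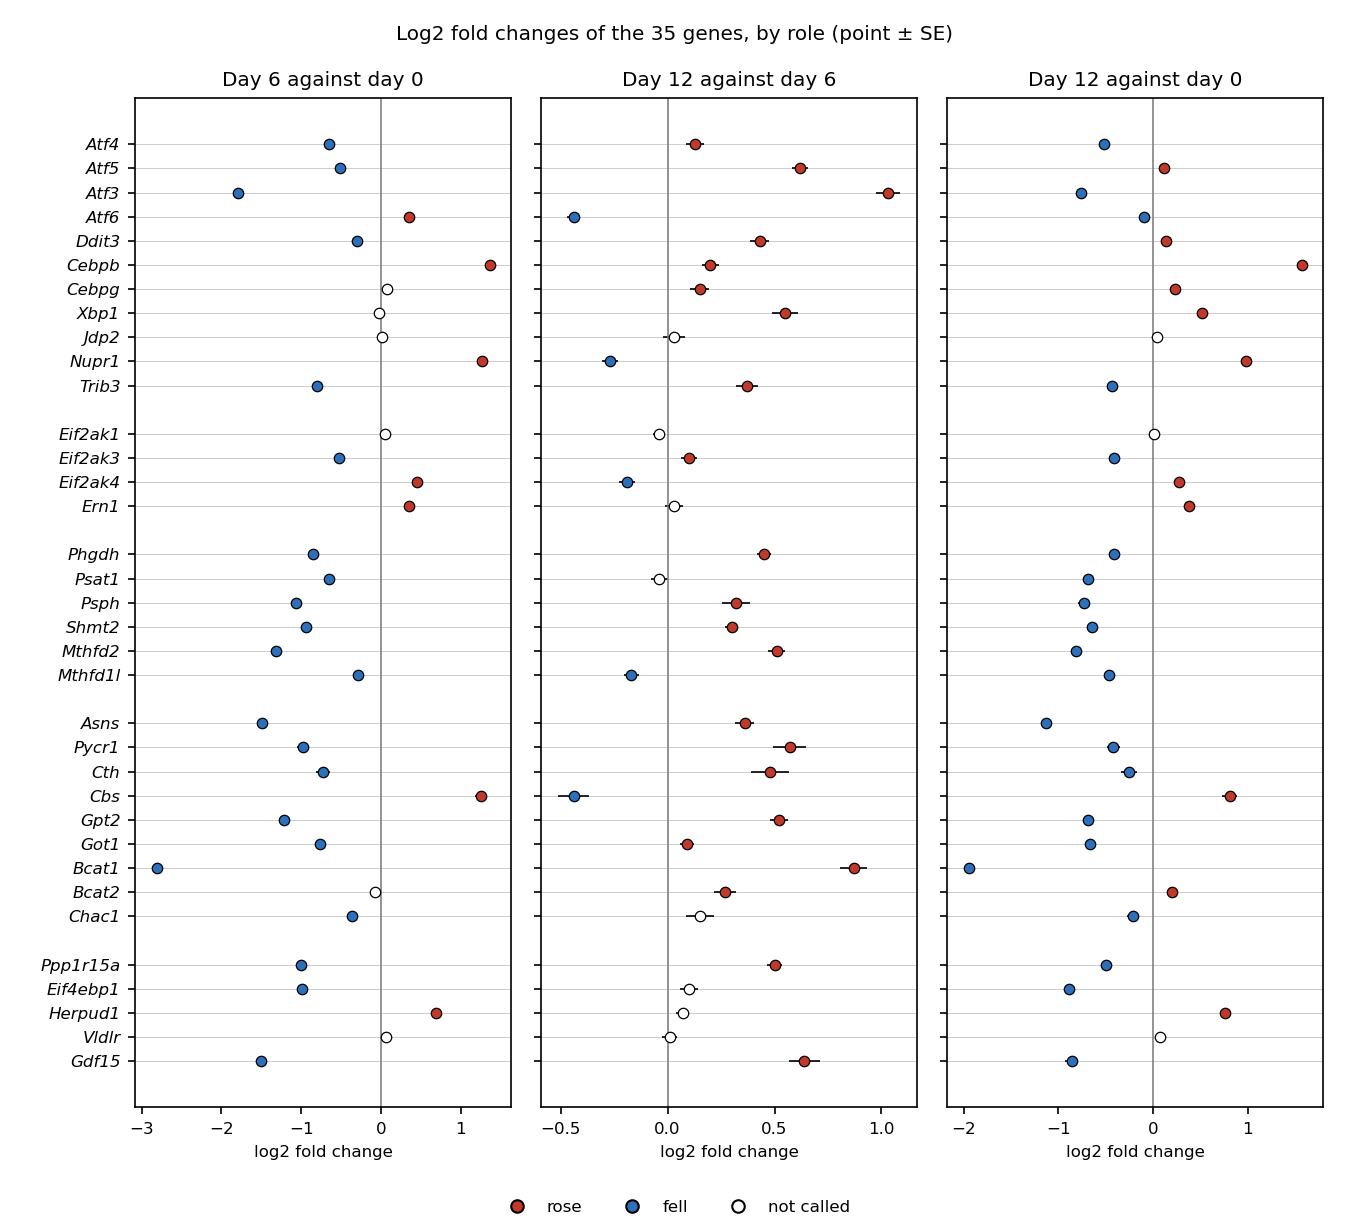
Log2 fold change (x axis, point ± SE) of each of the 35 genes in the 3 comparisons, in blocks by role: transcription factors and modulators, sensors, serine and one-carbon enzymes, other amino acid enzymes, other effectors. Red points rose, blue points fell and open points were not called. Most points lie left of 0 at day 6 (22 fell, 7 rose). From day 6 to day 12 most lie right of 0 (22 rose, 5 fell). Of the 105 values, 6 that were called with TMM scaling or on deposited TPM differ in sign between these, all of them at day 12.

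The sensors did not move as one group at day 6: Eif2ak3 fell, Eif2ak4 and Ern1 rose, and Eif2ak1 was not called. Eif2ak3 encodes PERK, the eIF2 kinase of the endoplasmic reticulum. It stood at 70.0, 75.6 and 70.7 CPM at day 0, 50.2, 49.6 and 51.2 at day 6, and 54.4, 52.4 and 55.5 at day 12. The 3 groups did not overlap, with day 0 highest and day 12 little above day 6. Eif2ak3 was 1.43-fold lower at day 6 than at day 0 (log2 fold change -0.52 ± 0.036 SE, adjusted p = 5.25e-09) and 1.33-fold lower at day 12 than at day 0 (-0.41 ± 0.036, adjusted p = 8.07e-08). Its rise of 0.10 ± 0.037 from day 6 to day 12 (adjusted p = 0.0309) did not pass without day 6 replicate A (0.0805) or B (0.0876), without day 12 replicate A (0.0734) or C (0.108), or with DESeq2 (0.073).

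Eif2ak4 encodes GCN2, the kinase that senses uncharged transfer RNA when amino acids run short. It had 34.7, 36.2 and 36.7 CPM at day 0, 47.9, 50 and 49.6 at day 6, and 44.0, 41.4 and 44.1 at day 12. Day 0 libraries were the lowest and day 6 libraries the highest, without overlap. Eif2ak4 rose 1.37-fold to day 6 (log2 fold change 0.45 ± 0.038, adjusted p = 4.16e-08) and was still 1.20-fold above day 0 at day 12 (adjusted p = 1.75e-05). Between day 6 and day 12 it fell by 0.19 ± 0.038 (adjusted p = 0.000875), a difference that reads 0.006 on log2(TPM + 1).

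Eif2ak1 encodes HRI, the kinase that senses haem shortage and relays mitochondrial stress. It stayed between 86.1 and 91.8 CPM in all 9 libraries: 88.3, 88.1 and 86.1 at day 0, 91.6, 91.8 and 89.0 at day 6, and 88.3, 89.4 and 86.9 at day 12. Day 6 lay just above day 0, and day 12 overlapped both. No comparison of Eif2ak1 passed the test, with log2 fold changes of 0.05 ± 0.028 (adjusted p = 0.111), -0.04 ± 0.028 (adjusted p = 0.248) and 0.01 ± 0.028 (adjusted p = 0.737). On log2(TPM + 1) day 12 was 0.166 above day 6, the opposite direction (limma adjusted p = 0.00228), and the differences from day 0 passed as well, 0.267 at day 12 (6.28e-05) and 0.101 at day 6 (0.0255). The medians over all genes on that scale were 0.16, 0.19 and 0.03 in turn, so the first value lies at the shift of all genes.

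Ern1 encodes IRE1 alpha, the nuclease that splices Xbp1 in the unfolded protein response. It had 30, 29 and 30.3 CPM at day 0, 37.8, 36.6 and 39.1 at day 6, and 39.6, 36.7 and 39.7 at day 12. Day 6 and day 12 overlapped each other and both lay above day 0. Ern1 rose 1.27-fold to day 6 (log2 fold change 0.35 ± 0.042, adjusted p = 2.57e-06) and was 1.3-fold above day 0 at day 12 (0.38 ± 0.041, adjusted p = 1.06e-06). Between day 6 and day 12 its difference was 0.03 ± 0.041 (adjusted p = 0.575), and 0.248 on log2(TPM + 1) (limma adjusted p = 0.00952), where the median of all genes was 0.16.

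Atf6, the membrane-bound factor that is cut free when unfolded protein builds up, went up and then down. It had 124, 125 and 124 CPM at day 0, 159, 161 and 154 at day 6, and 119, 113 and 117 at day 12. The day 6 libraries stood above all others, and day 12 just below day 0. Atf6 rose 1.27-fold to day 6 (log2 fold change 0.35 ± 0.029, adjusted p = 4.5e-08) and fell 1.36-fold from day 6 to day 12 (-0.44 ± 0.029, adjusted p = 1.88e-08). Against day 0 its day 12 value was -0.10 ± 0.029 (adjusted p = 0.00782), a call that is lost with upper-quartile factors (adjusted p = 0.0586) and turns to 0.162 on log2(TPM + 1).

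Xbp1, the factor whose messenger IRE1 alpha splices, was called at day 12 and not at day 6. It had 23.3, 23.3 and 20.7 CPM at day 0, 21.9, 21.2 and 23.3 at day 6, and 29.5, 34.2 and 33.1 at day 12. Day 0 and day 6 overlapped, and every day 12 library lay above both. Xbp1 rose 1.46-fold from day 6 to day 12 (log2 fold change 0.55 ± 0.061, adjusted p = 4.66e-06) and stood 1.44-fold above day 0 (0.52 ± 0.061, adjusted p = 1.92e-06). Between day 0 and day 6 its difference was -0.02 ± 0.062 (adjusted p = 0.766).

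**Figure D2:**
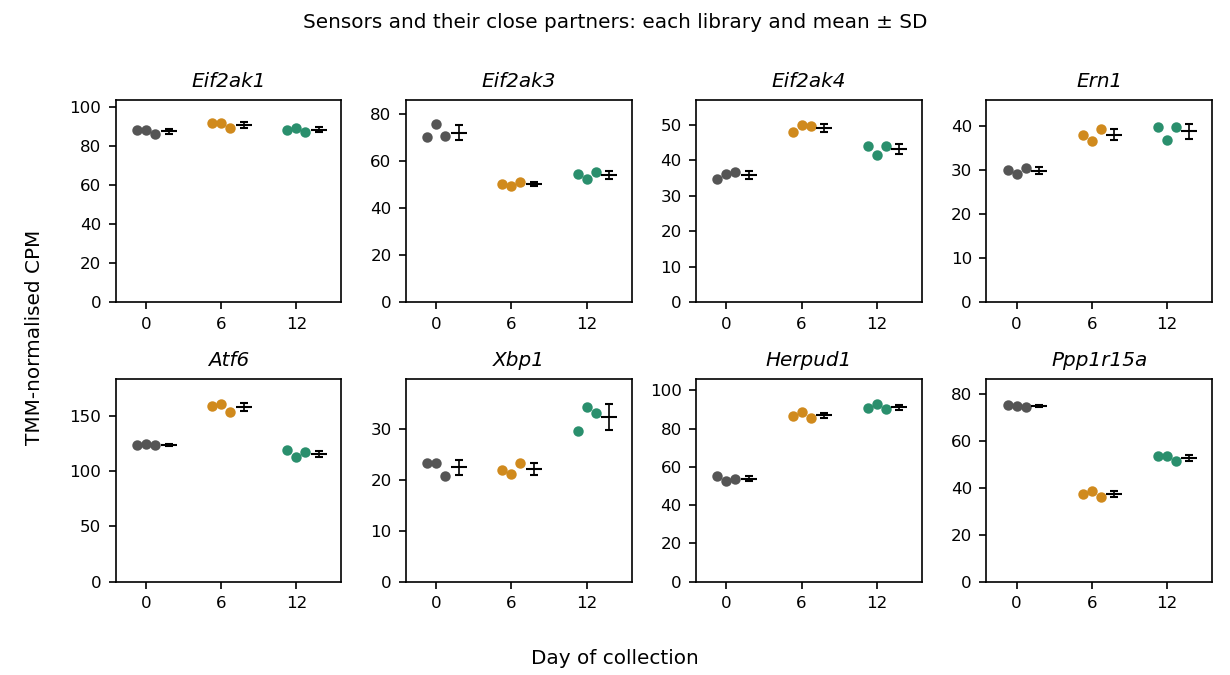
TMM-normalised CPM (y axis, from 0) in each library on day 0, 6 and 12 (x axis) for the 4 sensors and 4 genes close to them, with black bars for mean ± SD of 3 libraries. Eif2ak1 lies between 86.1 and 91.8 CPM throughout, Eif2ak3 and Ppp1r15a are highest at day 0, Atf6 and Eif2ak4 are highest at day 6, and Xbp1 is highest at day 12.

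Among the 11 transcription factors and their modulators, 5 fell and 3 rose at day 6 (72.7% called, against 64.9% of all genes). From day 6 to day 12, 8 rose and 2 fell (90.9% against 45.3%). At day 12, 6 were above and 4 below day 0 (90.9% against 66.4%). Atf4 (chr15:80255184-80257541, plus strand, GRCm38) had the highest TPM of them on every day. It had 586, 574 and 538 CPM at day 0, 357, 381 and 344 at day 6, and 383, 396 and 405 at day 12. The day 0 libraries lay far above the rest, and the day 12 libraries just above the day 6 libraries. Atf4 was 1.57-fold lower at day 6 than at day 0 (log2 fold change -0.65 ± 0.042, adjusted p = 2.29e-09) and 1.43-fold lower at day 12 (-0.52 ± 0.042, adjusted p = 3.69e-08). Its rise of 0.13 ± 0.042 from day 6 to day 12 (adjusted p = 0.0218) did not pass without day 6 replicate A (0.0772), day 6 replicate C (0.111) or day 12 replicate C (0.0804).

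Atf5 and Ddit3, a pair of factors controlled by ATF4, came back to slightly above day 0 on CPM. On deposited TPM they stood further above day 0 at day 12: 92.7 ± 4.3 against 120 ± 2.7 for Atf5, and 77.6 ± 2.5 against 98.1 ± 2.8 for Ddit3. The median of all genes on log2(TPM + 1) was 0.19 in that comparison. Atf5 also drives the mitochondrial branch of the stress response. It had 114, 112 and 105 CPM at day 0, 80.6, 78.0 and 73.6 at day 6, and 120, 120 and 117 at day 12. The day 6 libraries were lowest, and the day 12 libraries lay just above day 0 without overlap. Atf5 fell 1.42-fold to day 6 (log2 fold change -0.51 ± 0.038, adjusted p = 1.25e-08) and rose 1.54-fold to day 12 (0.62 ± 0.038, adjusted p = 9.14e-09). The remaining 0.12 ± 0.038 above day 0 (adjusted p = 0.013) did not pass without day 0 replicate C (0.0765).

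Ddit3 encodes CHOP, the factor that turns a prolonged response towards cell death. It had 33.2, 34.1 and 32.3 CPM at day 0, 27.3, 28.1 and 25.6 at day 6, and 34.8, 38.1 and 36.7 at day 12. Its 3 groups did not overlap, with day 6 lowest and day 12 highest. Ddit3 fell 1.23-fold to day 6 (log2 fold change -0.30 ± 0.046, adjusted p = 4.04e-05) and rose 1.35-fold from there to day 12 (0.43 ± 0.046, adjusted p = 2.7e-06). Its 0.14 ± 0.045 above day 0 (adjusted p = 0.0134) did not pass without day 0 replicate C (0.0548) or day 12 replicate B (0.0669).

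Atf3, a stress-induced repressor downstream of ATF4, fell most among the transcription factors. It had 67.5, 66.3 and 61.9 CPM at day 0, 17.5, 19.8 and 19.2 at day 6, and 35.9, 40.3 and 39.3 at day 12. No libraries of different days overlapped. Atf3 fell 3.46-fold to day 6 (log2 fold change -1.79 ± 0.055, adjusted p = 2.55e-13) and rose 2.04-fold to day 12 (1.03 ± 0.056, adjusted p = 2.63e-09), which left it 1.70-fold below day 0 (adjusted p = 3.78e-09). Trib3, a pseudokinase that restrains ATF4 and CHOP, had 27.8 ± 0.87, 15.9 ± 0.75 and 20.6 ± 1.0 CPM on the 3 days. Trib3 fell by 0.80 ± 0.051 on the log2 scale to day 6 (adjusted p = 1.44e-09) and then rose by 0.37 ± 0.051 (adjusted p = 3.86e-05).

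Cebpb and Nupr1 went against Atf4 and rose at day 6. Cebpb encodes C/EBP beta, a partner of ATF4 on the composite element. It had 28.6, 27.0 and 26.7 CPM at day 0, 70.0, 70.1 and 73.0 at day 6, and 86.5, 81.5 and 76.9 at day 12. All treated libraries were far above day 0, and day 12 lay above day 6. Cebpb rose 2.59-fold to day 6 (log2 fold change 1.37 ± 0.044, adjusted p = 4.92e-13) and was 2.98-fold above day 0 at day 12 (1.57 ± 0.044, adjusted p = 1.43e-13), with a step of 0.20 ± 0.041 between day 6 and day 12 (adjusted p = 0.00103).

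Nupr1 encodes a small stress-induced chromatin protein. It had 25.4, 23.3 and 24.8 CPM at day 0, 60.1, 57.4 and 58.7 at day 6, and 47.7, 48.6 and 49.4 at day 12. Day 6 was highest and day 0 lowest, without overlap. Nupr1 rose 2.39-fold to day 6 (log2 fold change 1.26 ± 0.038, adjusted p = 2.52e-13) and was 1.98-fold above day 0 at day 12 (adjusted p = 6.8e-12). Its fall of -0.27 ± 0.037 between day 6 and day 12 (adjusted p = 2.47e-05) was not called on log2(TPM + 1), where it was -0.059 (limma adjusted p = 0.213).

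Cebpg and Jdp2 moved least among the factors. Cebpg, a C/EBP family member that pairs with ATF4, had 58.4 ± 4.0, 61.8 ± 2.2 and 68.6 ± 1.9 CPM on the 3 days. Its day 6 difference from day 0 was 0.08 ± 0.045 (adjusted p = 0.124, and 0.0174 without day 0 replicate A). Cebpg rose by 0.15 ± 0.045 from day 6 to day 12 (adjusted p = 0.0141), a call lost without day 6 replicate C (0.0669) or day 12 replicate C (0.0546), and stood 1.17-fold above day 0 (adjusted p = 0.000323). Jdp2, a repressor of the AP-1 family, had 20.9 ± 1.0, 21.1 ± 1.0 and 21.5 ± 0.61 CPM, and its log2 fold changes of 0.01, 0.03 and 0.04 were not called (adjusted p = 0.819, 0.711 and 0.499). On log2(TPM + 1) Jdp2 was 0.227 higher at day 12 than at day 6 (limma adjusted p = 0.00719) and 0.276 higher than at day 0 (0.00175), beside medians of 0.16 and 0.19 over all genes.

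**Figure D3:**
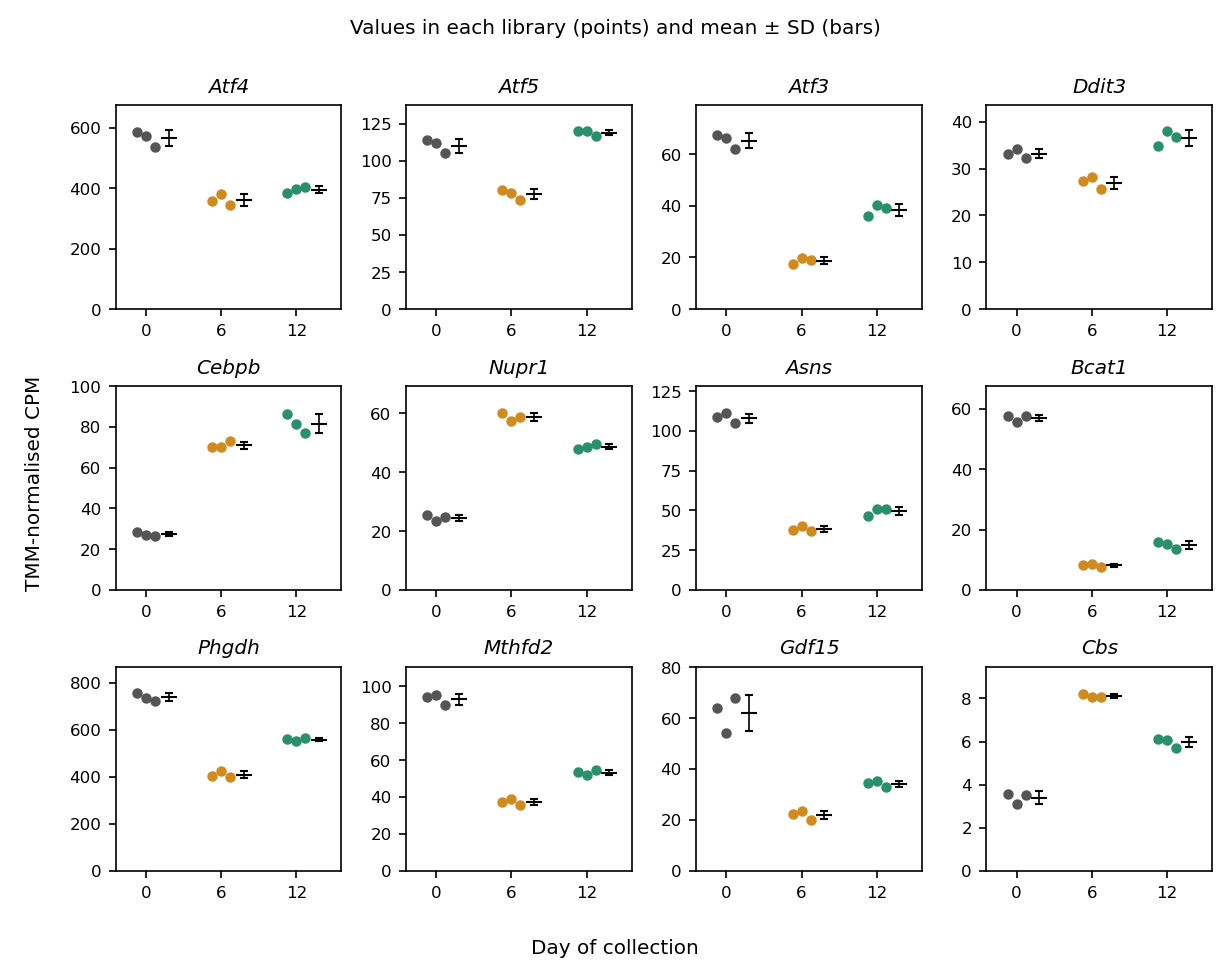
TMM-normalised CPM (y axis, from 0) in each library on day 0, 6 and 12 (x axis) for 12 of the genes, with black bars for mean ± SD of 3 libraries. Atf4, Atf3, Asns, Bcat1, Phgdh, Mthfd2 and Gdf15 are highest at day 0 and lowest at day 6, whereas Cebpb, Nupr1 and Cbs are lowest at day 0.

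All 6 enzymes of serine, glycine and mitochondrial one-carbon synthesis fell at day 6, and all 6 were still below day 0 at day 12. Of all genes tested, 31.4% fell at day 6 and 31.7% were below day 0 at day 12. The summed level of the 6 enzymes was 1420 to 1490 CPM at day 0, 789 to 853 at day 6 and 997 to 1020 at day 12. From day 6 to day 12, 4 rose, Mthfd1l fell and Psat1 was not called, where 22.6% of all genes rose and 22.7% fell. Phgdh, the first enzyme of serine synthesis, had 739 ± 18, 409 ± 15 and 558 ± 5.8 CPM on the 3 days. Phgdh fell 1.81-fold to day 6 (log2 fold change -0.85 ± 0.034, adjusted p = 5.69e-12) and was 1.32-fold below day 0 at day 12 (adjusted p = 4.53e-08). Psat1, the aminotransferase that follows it, had 292 ± 9.1, 186 ± 10 and 181 ± 3.5 CPM. Psat1 fell by 0.65 ± 0.039 on the log2 scale to day 6 (adjusted p = 9.58e-10). Its day 12 value of -0.04 ± 0.04 against day 6 (adjusted p = 0.404) read 0.158 on log2(TPM + 1) (limma adjusted p = 0.0127), where the median of all genes was 0.16.

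Psph, the phosphatase that completes serine synthesis, had 55.3, 51.8 and 52.6 CPM at day 0, 24.7, 28.1 and 23.7 at day 6, and 29.8, 31.1 and 35.4 at day 12. The days did not overlap, although day 6 replicate B and day 12 replicate A were close. Psph fell 2.08-fold to day 6 (log2 fold change -1.06 ± 0.065, adjusted p = 1.04e-09) and rose 1.25-fold to day 12 (0.32 ± 0.066, adjusted p = 0.00104).

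Shmt2, which moves a carbon from serine to folate in mitochondria, had 228, 232 and 221 CPM at day 0, 117, 123 and 116 at day 6, and 146, 147 and 144 at day 12. Replicates lay close together and the days were well apart. Shmt2 fell 1.92-fold to day 6 (log2 fold change -0.94 ± 0.031, adjusted p = 7.42e-13) and rose 1.23-fold to day 12 (0.30 ± 0.031, adjusted p = 2.68e-06).

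Mthfd2, the next enzyme of the mitochondrial folate cycle, had 94.0, 95.3 and 89.7 CPM at day 0, 37.5, 38.7 and 35.6 at day 6, and 53.4, 51.7 and 54.5 at day 12. It showed the largest fall of the serine and one-carbon enzymes, and its days did not overlap. Mthfd2 fell 2.49-fold to day 6 (log2 fold change -1.32 ± 0.038, adjusted p = 1.37e-13) and rose 1.43-fold to day 12 (0.51 ± 0.039, adjusted p = 8.18e-08). Mthfd1l, which releases formate from mitochondria, had 51.9 ± 1.0, 42.3 ± 0.72 and 37.5 ± 1.1 CPM. Mthfd1l fell at day 6 (log2 fold change -0.29 ± 0.034, adjusted p = 1.91e-06) and again from day 6 to day 12 (-0.17 ± 0.035, adjusted p = 0.000858), although the second step reads 0.039 on log2(TPM + 1).

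Of the 9 enzymes of other amino acids, 7 fell and Cbs rose at day 6, and Bcat2 was not called (31.4% of all genes fell and 33.5% rose). The largest change of all 35 genes was in Bcat1, the cytosolic aminotransferase of branched-chain amino acids (chr6:144993835-145076184, minus strand). It had 57.6, 55.7 and 57.5 CPM at day 0, 8.11, 8.50 and 7.75 at day 6, and 16.0, 15.1 and 13.4 at day 12. The 3 days lay far apart. Bcat1 fell 7.0-fold to day 6 (log2 fold change -2.81 ± 0.058, adjusted p = 2.66e-15), rose 1.83-fold to day 12 (0.87 ± 0.062, adjusted p = 4.61e-08) and stayed 3.83-fold below day 0 (-1.94 ± 0.054, adjusted p = 1.29e-13). Bcat2, its mitochondrial counterpart, had 17.9 ± 0.93, 17.1 ± 0.64 and 20.6 ± 0.66 CPM. Bcat2 differed by -0.07 ± 0.051 at day 6 (adjusted p = 0.227) and rose by 0.27 ± 0.051 from day 6 to day 12 (adjusted p = 0.000525).

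Asns, asparagine synthetase and a classical ATF4 target, had 109, 111 and 105 CPM at day 0, 38.0, 40.5 and 36.8 at day 6, and 46.7, 50.8 and 51.0 at day 12. Day 0 libraries held more than double the level of any other. Asns fell 2.81-fold to day 6 (log2 fold change -1.49 ± 0.042, adjusted p = 1.15e-13), rose 1.29-fold to day 12 (0.36 ± 0.043, adjusted p = 8.74e-06) and was then 2.19-fold below day 0 (adjusted p = 3.31e-12).

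Gpt2, the mitochondrial alanine aminotransferase, had 56.4, 57.7 and 56 CPM at day 0, 23.8, 25.7 and 23.6 at day 6, and 36.2, 34.8 and 34.1 at day 12. Its days did not overlap. Gpt2 fell 2.32-fold (log2 fold change -1.22 ± 0.04, adjusted p = 6.67e-13) and then rose 1.44-fold (0.52 ± 0.041, adjusted p = 1.32e-07). Pycr1, which makes proline in mitochondria, had 11.2, 11.9 and 11.4 CPM at day 0, 5.66, 6.45 and 5.23 at day 6, and 8.25, 8.95 and 8.60 at day 12. It too showed no overlap between days. Pycr1 fell 1.98-fold (log2 fold change -0.98 ± 0.074, adjusted p = 1.19e-08) and then rose 1.48-fold (0.57 ± 0.076, adjusted p = 2.55e-05).

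Cbs and Cth, the successive enzymes that turn homocysteine into cysteine, moved in opposite directions at day 6. Cbs had 3.58, 3.08 and 3.53 CPM at day 0, 8.21, 8.05 and 8.07 at day 6, and 6.11, 6.07 and 5.72 at day 12. The days did not overlap, and day 0 was lowest. Cbs rose 2.38-fold to day 6 (log2 fold change 1.25 ± 0.076, adjusted p = 9.54e-10), fell 1.36-fold from day 6 to day 12 (-0.44 ± 0.072, adjusted p = 0.00015) and stayed 1.75-fold above day 0 (adjusted p = 2.35e-07). Cth had 6.93 ± 0.26, 4.18 ± 0.37 and 5.82 ± 0.52 CPM. Cth fell by 0.73 ± 0.087 on the log2 scale to day 6 (adjusted p = 2.67e-06) and rose by 0.48 ± 0.089 to day 12 (adjusted p = 0.000474). Its -0.25 ± 0.084 against day 0 (adjusted p = 0.0169) did not pass without day 0 replicate A (0.0534) or day 12 replicate C (0.0824), or on log2(TPM + 1), where it was -0.005.

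Got1, the cytosolic aspartate aminotransferase, had 170 ± 5.2, 101 ± 2.7 and 107 ± 2.0 CPM. Got1 fell by 0.76 ± 0.032 on the log2 scale to day 6 (adjusted p = 1.16e-11). Its 0.09 ± 0.032 from day 6 to day 12 (adjusted p = 0.0397) did not pass without day 0 replicate B (0.0548), day 6 replicate A (0.166) or C (0.108), or day 12 replicate A (0.105) or B (0.0883), with DESeq2 (0.0814) or with only the 6 libraries compared (0.0508). Chac1, a glutathione-degrading enzyme downstream of ATF4 and CHOP, had 19.0 ± 1.5, 14.8 ± 1.2 and 16.4 ± 0.28 CPM. Chac1 fell by 0.36 ± 0.065 at day 6 (adjusted p = 0.000176). At day 12 Chac1 lay 0.15 ± 0.066 above day 6 (adjusted p = 0.0849). This difference passed without day 6 replicate B (0.0146), under upper-quartile scaling (0.0289), with no filter (0.0412) and on log2(TPM + 1) (0.341, limma adjusted p = 0.00201). Against day 0 it was -0.21 ± 0.064 (adjusted p = 0.00914, and 0.0673 without day 0 replicate A), which reads 0.041 on log2(TPM + 1).

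The 5 remaining genes act beyond amino acid synthesis, and 3 of them fell and 1 rose at day 6 (31.4% of all genes fell and 33.5% rose). Gdf15, a secreted stress hormone, had 64.1, 54.0 and 67.9 CPM at day 0, 22.4, 23.3 and 20.1 at day 6, and 34.4, 35.1 and 33.0 at day 12. Day 0 varied most between replicates, with replicate B lowest, yet no days overlapped. Gdf15 fell 2.82-fold to day 6 (log2 fold change -1.50 ± 0.072, adjusted p = 5.47e-11) and rose 1.56-fold to day 12 (0.64 ± 0.074, adjusted p = 6.22e-06). Ppp1r15a encodes GADD34, which helps dephosphorylate eIF2 and so ends the response. It had 75.2, 75.0 and 74.6 CPM at day 0, 37.4, 38.8 and 35.9 at day 6, and 53.5, 53.6 and 51.4 at day 12, again without overlap. Ppp1r15a fell 2.0-fold (log2 fold change -1.0 ± 0.034, adjusted p = 1e-12) and then rose 1.41-fold (0.50 ± 0.035, adjusted p = 3.62e-08).

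Eif4ebp1 encodes 4E-BP1, which restrains cap-dependent translation. It had 99.9, 92.4 and 101 CPM at day 0, 50.4, 49.0 and 48.5 at day 6, and 53.4, 54.4 and 50.6 at day 12. Day 12 sat just above day 6, and both far below day 0. Eif4ebp1 fell 1.98-fold to day 6 (log2 fold change -0.99 ± 0.04, adjusted p = 6.05e-12) and was 1.85-fold below day 0 at day 12 (adjusted p = 2.68e-11). Its 0.10 ± 0.04 above day 6 at day 12 was not called (adjusted p = 0.0569), but passed without day 0 replicate B (0.035) or day 12 replicate C (0.0269), under upper-quartile scaling (0.012), with no filter (0.0355) and on log2(TPM + 1) (0.00017).

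Herpud1, part of the machinery that disposes of misfolded endoplasmic reticulum proteins, rose at day 6 and stayed up. It had 53.9 ± 1.4, 87 ± 1.4 and 91.2 ± 1.3 CPM. Herpud1 rose 1.61-fold to day 6 (log2 fold change 0.69 ± 0.03, adjusted p = 2.05e-11) and was 1.69-fold above day 0 at day 12 (0.76 ± 0.03, adjusted p = 9.11e-12). Between day 6 and day 12 its 0.07 ± 0.03 (adjusted p = 0.0741) passed on log2(TPM + 1) (0.000703) and under upper-quartile scaling (0.00787). Vldlr, a lipoprotein receptor reported as an ATF4 target, was among the most abundant of the genes and was not called in any comparison. It had 696 ± 8.6, 724 ± 18 and 730 ± 33 CPM, with 0.06 ± 0.036 at day 6 (adjusted p = 0.189) and 0.07 ± 0.036 at day 12 against day 0 (adjusted p = 0.115, but 0.0161 without day 12 replicate B, 0.000705 on log2(TPM + 1) and 0.0165 under upper-quartile scaling).

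Levels can be compared between genes only per transcript length, on the deposited TPM. At day 0 Phgdh (593 ± 15 TPM) and Atf4 (506 ± 24 TPM) stood highest, followed by Vldlr (212 ± 4.8 TPM). Next came Psat1 (165 ± 5.2 TPM) and Shmt2 (159 ± 4.9 TPM), which differed by no more than their spread, and then Got1 (127 ± 5.1 TPM) and Eif4ebp1 (123 ± 3.3 TPM), which did not separate either. At the lower end, Cbs had 3.13 ± 1.0 TPM, Cth 5.9 ± 0.17 TPM, Ern1 6.33 ± 0.086 TPM and Eif2ak4 9.88 ± 0.28 TPM. At day 6 Phgdh (338 ± 11 TPM) and Atf4 (332 ± 16 TPM) no longer separated, and at day 12 they did (534 ± 20 and 420 ± 17 TPM). Of the 3 eIF2 kinases among the 35 genes, Eif2ak1 was highest on all 3 days (28.0 ± 0.55, 30.1 ± 0.35 and 33.9 ± 0.71 TPM), above Eif2ak3 (22.7 ± 1.0, 16.5 ± 0.41 and 20.2 ± 1.2 TPM) and Eif2ak4 (13.8 ± 0.3 TPM at day 6 and 13.9 ± 0.81 at day 12).

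**Figure D4:**
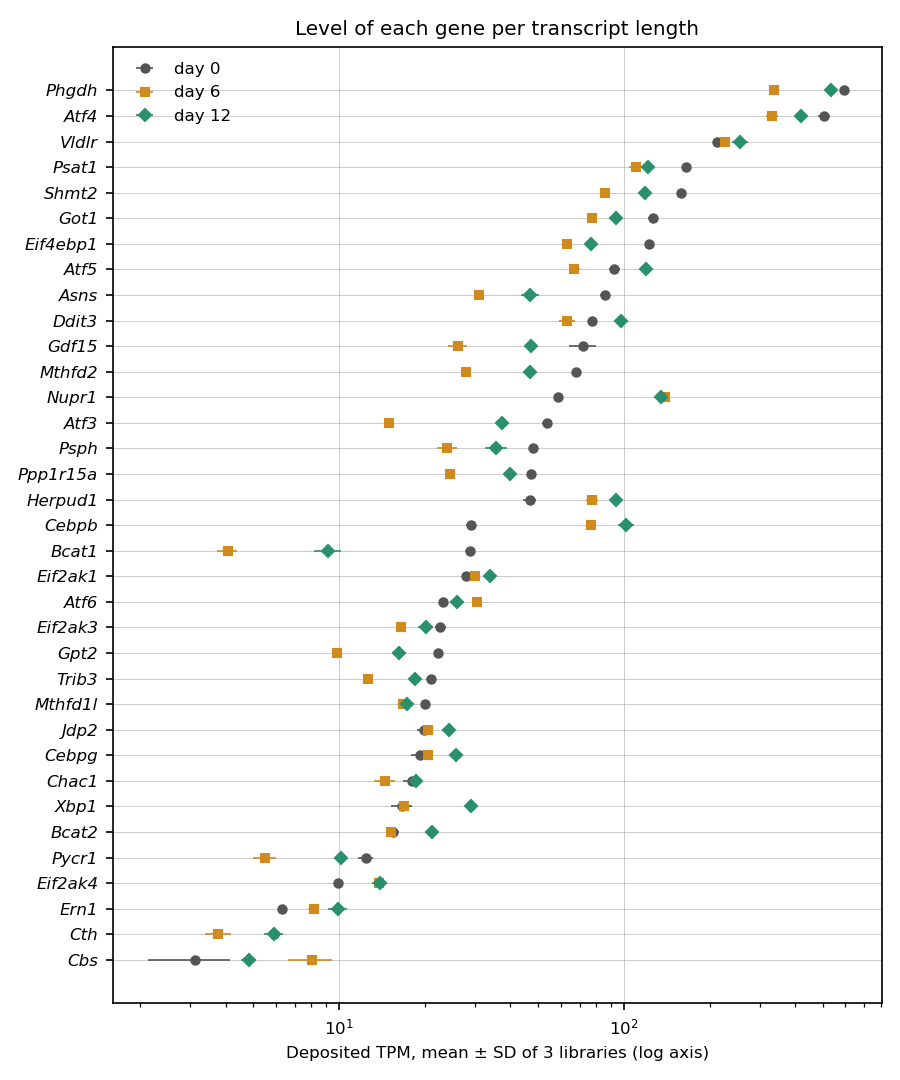
Deposited TPM (x axis, log scale, mean ± SD of 3 libraries) of the 35 genes, ordered by their day 0 level, with circles for day 0, squares for day 6 and diamonds for day 12. Levels at day 0 run from 3.13 TPM for Cbs to 593 TPM for Phgdh, and the gap between day 0 and day 6 is widest for Bcat1 (28.8 against 4.06 TPM).

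Genes with and without the TGATGNAA core were also counted separately. At day 6, 6 of the 10 genes with the core fell and 2 rose, with a median log2 fold change of -0.56, and of the 22 genes with a window but no core 14 fell and 4 rose, with a median of -0.52. From day 6 to day 12, 5 of the 10 rose and 1 fell (median 0.12), against 16 and 3 of the 22 (median 0.29). Among the 10, Nupr1 rose most and Atf3 fell most at day 6, and both carry TTGCATCA at -110, a coincidence seen after their values were known. Of all genes tested, 31.4% fell and 33.5% rose at day 6, and 22.6% rose and 22.7% fell from day 6 to day 12. No test was made between the genes with and without the core.

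Around these genes, 6 further lists of the same pathways were counted in the same fit. Over all genes tested, 31.4% fell and 33.5% rose at day 6. From day 6 to day 12, 22.7% of all genes fell and 22.6% rose, and against day 0, 31.7% were lower and 34.7% higher at day 12. The eIF2 and eIF2B machinery that the sensors act on was lower at day 6 in 11 of 15 genes and higher in 3, with a median of -0.38. Eif2s2, the beta subunit of eIF2, fell 1.57-fold (316 ± 8.3 to 202 ± 4.8 CPM, adjusted p = 1.01e-10). Impact, an inhibitor of GCN2, rose 1.54-fold (29.4 ± 1.2 to 45.4 ± 2.5 CPM, adjusted p = 4.05e-09) and was 1.91-fold above day 0 at day 12. Oma1, the mitochondrial protease that relays stress to HRI, fell 2.0-fold at day 6 (12.9 ± 0.39 to 6.46 ± 0.18 CPM, adjusted p = 5.63e-10) and rose 1.74-fold from day 6 to day 12 (adjusted p = 6.26e-08). At day 12, 12 of the 15 were below day 0 and 2 above, but on log2(TPM + 1) 2 were below and 3 above.

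Amino acid transporters reported as ATF4 targets fell in 6 and rose in 3 of 10 tested genes at day 6 (median -0.53), and the 11th had too few counts. Slc7a5, the large neutral amino acid carrier, fell 2.64-fold (117 ± 1.7 to 44.3 ± 0.34 CPM, adjusted p = 3.29e-15) and was 2.44-fold below day 0 at day 12. The arginine and lysine carrier Slc7a1 fell 1.96-fold (adjusted p = 2.02e-12), and the glutamine carrier Slc1a5 fell 1.66-fold (adjusted p = 8.85e-11). From day 6 to day 12 the transporters split 3 risen and 4 fallen, and 4 risen and 0 fallen on log2(TPM + 1).

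Other genes of serine, one-carbon, proline and transsulfuration metabolism split 4 risen and 8 fallen of 16 tested at day 6 (median -0.20). Aldh1l2, the mitochondrial formyltetrahydrofolate dehydrogenase, fell 3.67-fold (201 ± 5.3 to 54.7 ± 2.8 CPM, adjusted p = 3.29e-15) and remained 2.80-fold below day 0 at day 12. Aldh18a1, which starts proline synthesis, fell 1.58-fold (adjusted p = 2.94e-11).

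Other reported ATF4 or CHOP targets did not lean one way at day 6, with 7 risen and 6 fallen of 18 (median 0.05). Stc2, a secreted glycoprotein, fell 21.0-fold (231 ± 3.4 to 11.0 ± 0.38 CPM, log2 fold change -4.39 ± 0.035, adjusted p = 3.88e-19) and rose 14.3-fold from day 6 to 156 ± 0.93 CPM at day 12 (3.83 ± 0.035, adjusted p = 2.7e-18). Ddit4, an inhibitor of mTORC1, rose 2.16-fold to day 6 (40.2 ± 3.4 to 86.8 ± 3.6 CPM, adjusted p = 2.7e-11). Vegfa, the endothelial growth factor, rose 1.92-fold (83.5 ± 3.4 to 160 ± 3.5 CPM, adjusted p = 1.04e-11).

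Chaperones and other ATF6 and XBP1 targets fell in 15 and rose in 3 of 22 genes at day 6 (median -0.35), and rose in 15 and fell in 1 from day 6 to day 12 (median 0.31). Hspa5, the chaperone BiP, fell 1.62-fold (848 ± 35 to 522 ± 8.3 CPM, adjusted p = 1.18e-10) and rose 1.47-fold to 766 ± 18 CPM at day 12 (adjusted p = 1.58e-08). Hsp90b1, the chaperone GRP94, fell 1.52-fold (adjusted p = 2.48e-10) and rose 1.28-fold (adjusted p = 7.17e-07). Hyou1, a further chaperone of the compartment, fell 1.61-fold (adjusted p = 2.78e-11) and rose 1.39-fold (adjusted p = 2.07e-08). Against day 0 the list split 5 higher and 7 lower at day 12, and 17 higher and 1 lower on log2(TPM + 1).

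Other basic leucine zipper partners rose in 10 and fell in 4 of 15 tested genes at day 6 (median 0.34). Cebpa, which encodes C/EBP alpha, rose 11.4-fold from 0.836 ± 0.22 to 9.79 ± 0.48 CPM (adjusted p = 1.12e-12) and stayed 10.5-fold above day 0 at day 12. Nfe2l2, which encodes NRF2, the oxidative stress factor, rose 1.43-fold (adjusted p = 5.45e-10), and Junb, an AP-1 subunit, rose 1.86-fold (adjusted p = 8.46e-10).

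**Figure D5:**
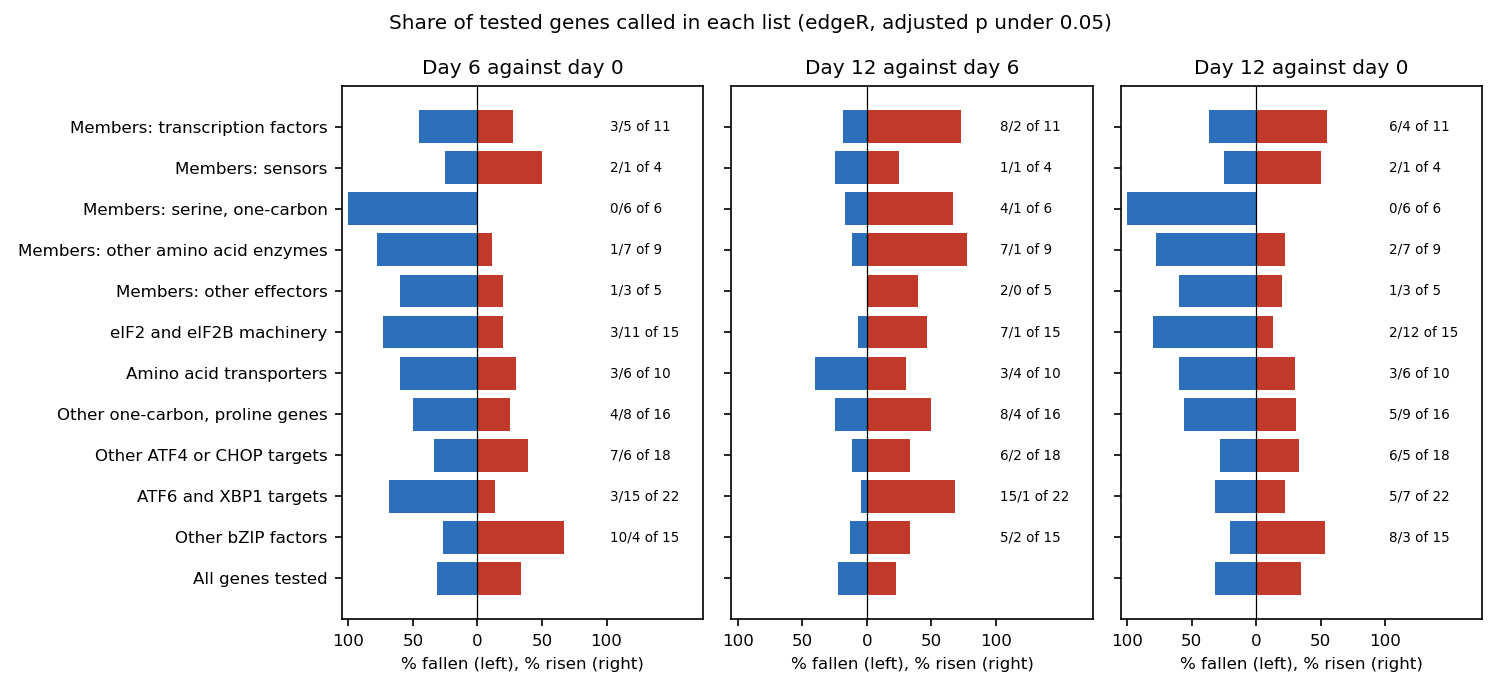
Percentage of tested genes that fell (blue, to the left) and rose (red, to the right) in each list and over all genes tested, for the 3 comparisons, with risen/fallen counts at the right. All 6 serine and one-carbon enzymes fell at day 6, and ATF6 and XBP1 targets split 3 risen and 15 fallen at day 6 and 15 risen and 1 fallen from day 6 to day 12; on deposited TPM the day 12 splits move towards risen.

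Some markers of other cell types were called too, in data where 64.9% of all genes tested were called at day 6, 33.5% risen and 31.4% fallen. Podocyte markers summed to 439 to 450, 281 to 287 and 367 to 389 CPM on the 3 days, nearly all of it Synpo and Podxl. Immune markers summed to 41.0 to 46.4, 24.4 to 28.2 and 28.3 to 29.3 CPM, mainly Csf1r and Cd68, with 0 counts of Cd3e and 1 of Adgre1. Of 4 tested at day 6, 1 rose and 2 fell. Lyz2 rose from 0.335 to 2.77 CPM, Csf1r fell from 25.5 to 7.96 CPM and Ptprc from 2.12 to 0.0299 CPM. Cd68 had 15.7 CPM on both days and was not called. Stromal markers summed to 7.97 to 8.44, 7.42 to 7.64 and 11.5 to 13.5 CPM, but their members split 3 risen and 1 fallen of 5 tested at day 6 (2 risen and 1 fallen with DESeq2). Among them, Pdgfrb rose from 0.0762 to 2.45 CPM, Col3a1 from 0.00879 to 0.756 CPM and Col1a2 from 0.104 to 0.257 CPM, and Dcn fell from 4.92 to 0.442 CPM before rising to 5.08 CPM at day 12. In sum, endothelial and distal tubule markers never exceeded 1.79 CPM. The 9 proximal tubule markers that were tested split 2 risen and 6 fallen at day 6. Their part in the results above was not tested.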

How the data were processed

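Polyadenylated RNA of 9 libraries (3 per day) was measured, per the labels. The authors deposited whole-number counts per gene, without normalisation, and TPM per gene. The submitters' processing notes name build GRCm38 and the tools STAR 2.7.8a, RSEM 1.3.3, cutadapt 2.3 and FastQC 0.11.8. What each tool did, the strand setting and the annotation release are not given in these sources. Counts made by RSEM would be rounded estimates. A further 4 transgene entries (0.00204 to 0.00284% of counts) were left out.

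After filterByExpr and TMM scaling, counts entered 1 quasi-likelihood fit in edgeR 4.0.16 (R 4.3.3) over all 9 libraries (6 residual degrees of freedom), with Benjamini-Hochberg adjustment over 16353 genes. "Rose" and "fell" mean an adjusted p under 0.05. The SE is the one the F statistic implies. The fit was run on simulated counts in which few genes changed, at day 6 only. Such a run does not test the scaling at day 12. Alternatives used DESeq2 1.42.0 and limma 3.58.1 on log2(TPM + 1) and log2(TPM + 0.1). Positions are from GENCODE M21, which held 55141 of the 55487 identifiers. Pycr3 and Ero1a were matched by older symbols.

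The 35 genes and the lists were chosen with earlier results of these data known. Library values are given for Atf4, Atf5, Ddit3, Atf6, Ern1, Xbp1, the eIF2 kinases and the 14 called genes with the largest change. From every further pathway list, up to 3 genes with the smallest adjusted p are named; 1 such gene is not reported here.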

Additional observations from a re-analysis of the deposited data

How the results depend on the processing

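Of the 105 results of the 35 genes, DESeq2 ended 2 calls, upper-quartile factors ended 1 and added 4, leaving out the filter added 2, and fitting only the 6 libraries compared ended 1. On log2(TPM + 1), with the shift of all genes at day 12, 12 calls were added and 5 lost. There, 6 results that were called in the main fit or on this scale turned direction. Their values there, and on log2(TPM + 0.1) in turn, were for day 12 against day 6 Eif2ak1 (0.166 and 0.171), Eif2ak4 (0.006 and 0.006), Psat1 (0.158 and 0.159) and Mthfd1l (0.039 and 0.041), and for day 12 against day 0 Atf6 (0.162 and 0.168) and Chac1 (0.041 and 0.043). The genes that fell from day 6 to day 12 numbered 2 on both TPM scales instead of 5. Leaving out 1 library at a time changed 25 of 945 results, over 12 of the 105, and no called result turned direction. Called genes then ran from 29 to 30 at day 6 against day 0, 24 to 27 at day 12 against day 6 and 30 to 32 at day 12 against day 0.

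Replicate letters are shared across days without a stated meaning, and deviations of same-letter libraries correlated at only -0.0834 to 0.0783. With a replicate block, 22 genes fell and 7 rose at day 6, 22 rose and 5 fell from day 6 to day 12, and 11 rose and 21 fell against day 0, with no call changed.

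Precision was lowest for the genes with the fewest counts, with SEs of 0.087 for Cth, 0.076 for Cbs and 0.074 for Pycr1 at day 6 against day 0. Exons of 12 of the genes overlap a gene on the other strand (Atf5, Ddit3, Cebpb, Cebpg, Jdp2, Eif2ak1, Eif2ak3, Psph, Shmt2, Bcat1, Bcat2, Ppp1r15a), and Cebpg also Gm44836 on its own strand. As the strand setting is not given, reads of such partners cannot be told apart. The Phgdh pseudogene Phgdh-ps1 had at most 13 counts in a library.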
